A study of Mus musculus with 12 samples.

Results

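The genes described here encode the lipases that split dietary and circulating fat, the protein cofactor of pancreatic lipase, and secreted phospholipases A2. All probes carrying 1 of 8 gene symbols (Clps, Pla2g1b, Pla2g12b, Lpl, Pnlip, Pnliprp1, Pnliprp2 and Cel) in the annotation of the array were taken, which gave 9 probes of 8 genes among 29922 probes of 16675 named genes. Their intensities were measured on 12 arrays, 3 in each of 4 groups: chitosan stomach, mock stomach, chitosan brain and mock brain. Chitosan mice had received a subcutaneous injection of 0.2 g/kg chitosan oligosaccharide lactate, a soluble form of the deacetylated chitin polymer, and mock mice saline, and organs were taken on day 3. All mice were male, 6 to 8 weeks old, of the FVB strain and heterozygous for a luciferase transgene that all groups share, in which tandem peroxisome proliferator response elements (PPRE, the DNA element bound by the nuclear receptors called PPAR) and a tk promoter drive luciferase. The 3 arrays of a group came from 3 independent mice, and neither labels nor methods tell whether 1 mouse gave both organs. The labels name no layer of the stomach, and in such bulk RNA fewer cells of a type and less RNA per cell cannot be told apart.

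Dietary triglyceride is cleaved by gastric lipase in the stomach and then by pancreatic lipase, encoded by Pnlip, in the gut lumen. Bile salts displace pancreatic lipase from the fat droplet, and colipase, encoded by Clps, holds it there. Secreted phospholipase A2 of group IB, encoded by Pla2g1b, cleaves dietary phospholipid, and carboxyl ester lipase, encoded by Cel, cleaves cholesteryl and other esters. Pnliprp1 and Pnliprp2 encode relatives of pancreatic lipase. Lipoprotein lipase, encoded by Lpl, works on the other side of the gut wall, on the capillary surface, where it frees fatty acids from chylomicrons and very low density lipoproteins, and its gene is a well-known target of PPAR in fat and muscle. Pla2g12b encodes a phospholipase family member without catalytic activity that takes part in lipoprotein secretion in the mouse liver.

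In RefSeq coordinates of the GRCm38.p6 build, Clps lies at chr17:28558210-28560766, Pla2g1b at chr5:115466142-115474722, Pla2g12b at chr10:59403420-59421976 and Lpl at chr8:68880555-68906932. Pnlip at chr19:58670365-58681799, Pnliprp1 at chr19:58728887-58744169 and Pnliprp2 at chr19:58759723-58777534 are neighbours on chromosome 19, and Cel lies at chr2:28555819-28563403. Which exon each probe matches was not analysed here. Each gene had 1 probe except Lpl, which had 2, called here probe A (mMR027543) and probe B (mMC023651).

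A RefSeq promoter sequence, from 250 bases before to 50 bases after the transcript start that the sequence table uses, was at hand for 6 of the 8 genes. None was at hand for Clps and Lpl, so these 2 genes were not searched. For 5 of the 6 genes with a window that start is the end of the locus given above. For Pla2g12b, on chromosome 10, it is position 59403685, which is 265 bases downstream of the start of the locus. These windows were searched on both strands for the PPAR-type direct repeat, that is, 2 copies of AGGTCA in the same direction with 1 base between them and at most 2 mismatches. Of the 6 windows searched, only that of Pla2g12b, chr10:59403435-59403734 on the plus strand, held such a match. It is shown because its gene was lower on every chitosan stomach than on every mock stomach. The match is in capitals and reads AGGACAAAGGTGA on the opposite strand, at positions -108 to -96 from position 59403685 with 2 mismatches, inside the locus as given above. The window of Pla2g1b, chr5:115465892-115466191 on the plus strand, is shown beside it as that of the other secreted phospholipase A2 gene, with no match and no capitals.
Pla2g12b: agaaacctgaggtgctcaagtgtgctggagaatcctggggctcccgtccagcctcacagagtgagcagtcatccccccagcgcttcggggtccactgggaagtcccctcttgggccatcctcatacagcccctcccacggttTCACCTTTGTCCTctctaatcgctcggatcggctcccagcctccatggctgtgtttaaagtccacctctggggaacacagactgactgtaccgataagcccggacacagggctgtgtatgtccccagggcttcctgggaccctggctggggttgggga
Pla2g1b: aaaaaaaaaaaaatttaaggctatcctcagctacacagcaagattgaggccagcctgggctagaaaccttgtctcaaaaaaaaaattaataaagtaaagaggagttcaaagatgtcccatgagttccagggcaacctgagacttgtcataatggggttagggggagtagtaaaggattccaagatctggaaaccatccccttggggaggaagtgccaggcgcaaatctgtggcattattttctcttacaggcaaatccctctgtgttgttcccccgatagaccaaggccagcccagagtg
A direct repeat of this kind was found in 3.86% of 32851 promoters of the same length. A single exact AGGTCA was present only in the Cel window, at positions -92 to -87 and -28 to -23 on the opposite strand, against 16.3% of all promoters. TATAAA was present only in the Pnlip window, at positions -30 to -25, against 13.6% of all. A match of letters is a description of the window and not a binding site.

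The arrays carried the organ signal that their labels give. The 10 neuron markers summed to intensities of 5614 to 8282 in chitosan brains and 5930 to 8521 in mock brains, against 502 to 545 in chitosan stomachs and 503 to 529 in mock stomachs. The lowest intensity on any array was 34.3 and the highest was 28367 on all 12, and a probe was taken as above background where the mean of at least 1 group exceeded 2 times that lowest value, 68.7. By this rule 4893 probes were above background, among them those of Clps, Pla2g1b, Pla2g12b and Lpl probe A. The other 5 probes, of Pnlip, Pnliprp1, Pnliprp2, Cel and Lpl probe B, were not. The number of distinct intensities per array was small for 29922 probes, 268 to 651 in chitosan stomachs and 579 to 884 in mock stomachs, so that many probes share exactly the same value. In brains it was 447 to 947 with chitosan and 308 to 382 in mock. Arrays of the same group correlated with r of 0.796 to 0.951 in chitosan stomachs, 0.871 to 0.939 in mock stomachs, 0.803 to 0.943 in chitosan brains and 0.899 to 0.934 in mock brains, over all probes.

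Clps, the colipase gene, was the member with the strongest stomach signal relative to brain. Its intensity in chitosan stomachs was 2783, 4233 and 5976, against 16672, 20076 and 20076 in mock stomachs. Every chitosan stomach thus lay below every mock stomach, and the lowest mock value was well above the highest chitosan value. From the brightest of 29922 probes, Clps had rank 33, 18 and 11 in chitosan stomachs and 4, 3 and 3 in mock stomachs. The 2 mock arrays with rank 3 gave the identical value. So near the top, where the arrays share their highest intensity, the normalization may set the values and their spread, which was not tested. In brains the values were 52.2, 50.75 and 97.3 with chitosan and 52.4, 53.25 and 50.6 in mock. Only the third chitosan brain rose above the background limit of 68.7, and the other 5 brains did not.

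Pla2g1b, the digestive phospholipase A2 gene, was measured at 198, 141 and 47.5 in chitosan stomachs, against 294, 763 and 372 in mock stomachs. The groups did not overlap, but both were widely spread, and the third chitosan stomach was below the background limit while the other 2 were above it. The third chitosan stomach also had the highest Clps value of the chitosan stomachs, so the arrays did not fall in the same order for both genes. All 6 brains were near background for Pla2g1b, at 37.6, 38.7 and 41.8 with chitosan and 43.25, 39.5 and 40.75 in mock.

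Pla2g12b gave 50.75, 47.0 and 45.1 in chitosan stomachs, against 137, 102 and 130.5 in mock stomachs. All 3 mock stomachs were above background and all 3 chitosan stomachs were not, at about the level of the brains. Those were 41.3, 42.6 and 43.0 with chitosan and 39.9, 41.75 and 43.0 in mock.

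Lpl was read by 2 probes that did not behave alike. Probe A gave 58.7, 60.5 and 48.7 in chitosan stomachs, against 115.75, 117 and 126 in mock stomachs, and the groups did not overlap. In brains it gave 85.5, 88.6 and 68.5 with chitosan and 70.3, 74.8 and 72.4 in mock, so that the levels ran from mock stomach through both brain groups, which overlapped, down to chitosan stomach. Probe B stayed near background on all 12 arrays, at 43.75, 47.0 and 46.4 in chitosan stomachs and 44.1, 43.9 and 43.0 in mock stomachs. Its brains gave 44.9, 44.1 and 44.0 with chitosan and 46.4, 41.75 and 48.9 in mock. Statements on Lpl below rest on probe A unless probe B or the mean of both probes is named.

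**Figure D1:**
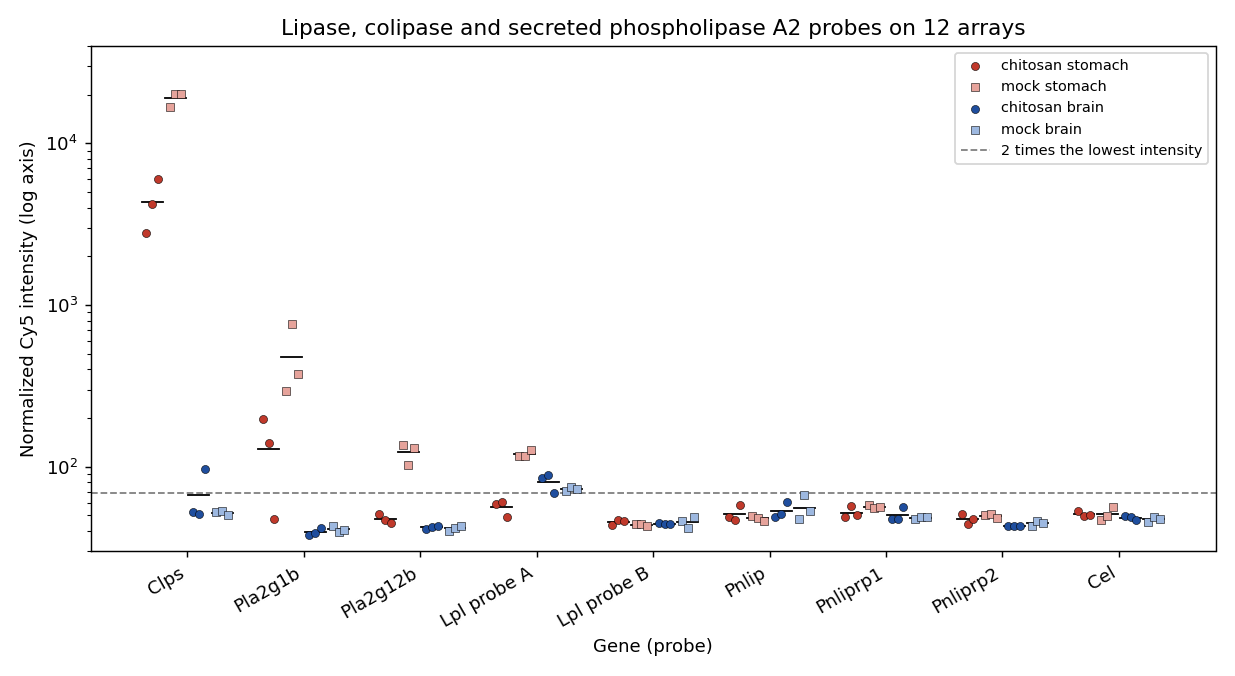
Normalized Cy5 intensity (log axis) of the 9 probes on each of the 12 arrays, with 1 point per array, a black bar at the group mean and a dashed line at 2 times the lowest intensity. Clps, Pla2g1b, Pla2g12b and Lpl probe A were lower on all 3 chitosan stomachs than on all 3 mock stomachs, and the other 5 probes stayed under the line on all 12 arrays.

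The genes of pancreatic lipase, its relatives and carboxyl ester lipase, like Lpl probe B, gave no signal that could be compared. Over Pnlip, Pnliprp1, Pnliprp2, Cel and Lpl probe B, intensities ran from 43.75 to 57.7 in chitosan stomachs and 43.0 to 57.7 in mock stomachs. In brains they ran from 43.0 to 60.7 with chitosan and 41.75 to 66.5 in mock, and the highest value, 66.5, was that of Pnlip in the second mock brain. Pnlip, the main lipase that colipase serves, gave 48.6, 47.0 and 57.7 in chitosan stomachs, against 49.3, 47.9 and 46.3 in mock stomachs. The signal of Clps in the stomach stood beside no measurable signal of Pnlip. Lipf, the gene of gastric lipase, was at 43.75, 45.0 and 47.5 in chitosan stomachs and 49.3, 43.9 and 47.3 in mock stomachs, and its probe was not above background either. A value near background limits what the array measured and does not show that a transcript was missing.

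Stomach and brain of mock mice were then compared to give the levels without treatment. By limma with Benjamini-Hochberg adjustment over all probes, 4 of 9 member probes were higher in the mock stomach than in the mock brain, where 3.54% of all probes were. None of the 9 was lower, a direction called for 2.83% of all probes. Clps was at 18941 ± 1965 in mock stomachs and 52.1 ± 1.36 in mock brains (SD, n = 3 each), a log2 difference of 8.50 (SE 0.19, adjusted p = 7.66e-06 by limma). Because all 3 mock brains were near background this is at least 273-fold in normalized intensity. The bound takes for each dim array the higher of 2 times its lowest intensity and its own value, as do the other bounds below. Pla2g1b was at 476 ± 251 in mock stomachs and 41.2 ± 1.91 in mock brains (SD, n = 3 each), at least 6.33-fold higher (log2 difference 3.41, SE 0.36, adjusted p = 0.00123 by limma). Pla2g12b was at 123 ± 18.4 in mock stomachs and 41.6 ± 1.55 in mock brains (SD, n = 3 each), at least 1.77-fold higher (log2 difference 1.56, SE 0.13, adjusted p = 4.85e-04 by limma).

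Lpl probe A was above background in both organs, at 119.5 ± 5.77 in mock stomachs and 72.5 ± 2.25 in mock brains (SD, n = 3 each). The stomach was 1.65-fold higher (log2 difference 0.72, SE 0.13, adjusted p = 0.0169 by limma), and the groups did not overlap. This call was lost with the replicate number as a block (adjusted p = 0.116 by limma) and on leaving out 5 of the 6 arrays in turn. The 2 near-background probes of Pnliprp1 and Pnliprp2 also had mock stomachs above mock brains without overlap, with adjusted p of 0.0562 and 0.144 by limma, which gave 6 of 9 probes without overlap where 11.2% of all probes had none in that direction.

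The effect of chitosan in the stomach was the next comparison. The probes of Clps, Pla2g1b and Pla2g12b and Lpl probe A were lower in chitosan stomachs, and the other 5 differed by at most 0.12 on the log2 scale. Pla2g12b was above background only through its mock stomachs, so its place among the measured probes is not independent of this difference. With the model of the 6 stomach arrays, no member and no other probe on the array passed an adjusted p of 0.05 by limma (0 of 29922). At an unadjusted p under 0.05, 4 of 9 member probes were lower where 3.22% of all probes were, and none was higher where 2.03% were. Likewise 4 of 9 were at least 2-fold lower where 0.394% of all probes were, and none was 2-fold higher where 0.127% were. Without overlap of the groups, 4 of 9 were lower where 5.37% of all probes were, and none was higher where 6.86% were. With 3 arrays against 3, an exact permutation test of a single probe cannot go below p = 0.1.

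Clps was at 4331 ± 1599 in chitosan stomachs and 18941 ± 1965 in mock stomachs (SD, n = 3 each). The difference was -2.19 on the log2 scale (SE 0.24, 95% confidence interval -2.76 to -1.62), with an adjusted p of 0.0970 by limma. That is 4.57-fold lower in normalized intensity with chitosan. With Clps among the brightest probes of the mock stomachs, the fold and the small spread there may not be those of the transcript. Pla2g1b was at 129 ± 76.0 in chitosan stomachs and 476 ± 251 in mock stomachs (SD, n = 3 each). Its difference of -1.99 was of like size but less precise (SE 0.69, interval -3.60 to -0.38), with an adjusted p of 0.853 by limma.

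Pla2g12b was at 47.6 ± 2.88 in chitosan stomachs and 123 ± 18.4 in mock stomachs (SD, n = 3 each). The log2 difference was -1.36 (SE 0.16, interval -1.73 to -0.99, adjusted p = 0.0970 by limma), and with the chitosan stomachs near background the bound was at least 1.77-fold lower. Lpl probe A was at 55.9 ± 6.37 in chitosan stomachs and 119.5 ± 5.77 in mock stomachs (SD, n = 3 each). Its log2 difference was -1.10 (SE 0.16, interval -1.47 to -0.73, adjusted p = 0.142 by limma), at least 1.72-fold lower. Both low groups were below the background limit on all 3 arrays, so the measured differences, 2.57-fold for Pla2g12b and 2.14-fold for Lpl probe A, are not bounds. With the mean of both Lpl probes the log2 difference was -0.52 (adjusted p = 0.178 by limma), and Lpl was then not 2-fold lower.

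The calls depended on how the spread was estimated. When all 12 arrays were fitted in 1 model, with the spread shared by the 4 groups, 3 of 9 member probes fell with chitosan in the stomach, where 0.291% of all probes did, and none rose where 0.0267% did. These were Pla2g12b (adjusted p = 1.64e-04 by limma), Lpl probe A (adjusted p = 0.00375) and Clps (adjusted p = 0.0251), while Pla2g1b did not pass (adjusted p = 0.168). Leaving out each of the 6 stomach arrays in turn in this model, Pla2g12b and Lpl probe A passed all 6 times. For Pla2g12b, however, the brain arrays near background brought a small spread into this model. The SD of log2 intensity was 0.030 in chitosan and 0.054 in mock brains, against 0.087 and 0.225 in chitosan and mock stomachs. Its SE was 0.10, against 0.16 with the stomach arrays alone. All brain arrays stayed in these fits, so passing 6 times does not test this. Clps passed only without the third chitosan stomach, with adjusted p from 0.0192 to 0.159 by limma, and missed the threshold without each of the other 5. In the model of the 6 stomach arrays the same omission was the only one to give a member an adjusted p under 0.05, Clps at 0.0322. That array held the fewest distinct intensities, 268. With the number of distinct intensities as a covariate in the 12-array model, Clps was at -2.59, Pla2g12b at -1.40 and Lpl probe A at -0.98 on the log2 scale, with adjusted p of 0.00208, 7.17e-04 and 0.00782 by limma, and Pla2g1b at -1.44 had 0.178. That fit called more of the array, 0.672% of all probes as lower and 0.418% as higher, against 3 of 9 member probes lower and 0 higher.

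In the brain the same 9 probes showed no chitosan difference of that size. None passed in either direction by limma after adjustment (0% of all probes) or at an unadjusted p under 0.05, where 3.39% of all probes were higher and 3.11% lower. None passed with the 12-array model, where 0.01% rose and 0% fell. None differed 2-fold, where 0.207% of all probes were higher and 0.16% lower, and none lay apart without overlap, where 5% were higher and 6.79% lower. Lpl probe A, which lay just above the background limit in all 3 mock brains and in 2 of 3 chitosan brains, was at 80.9 ± 10.8 in chitosan brains and 72.5 ± 2.25 in mock brains (SD, n = 3 each). The log2 difference was 0.15 (SE 0.14, adjusted p = 0.810 by limma), with an interval of -0.18 to 0.48. That interval holds for the measured intensity. So close to background it does not bound the change of the transcript, and a 2-fold change is not excluded. Clps averaged 66.75 ± 26.5 in chitosan brains and 52.1 ± 1.36 in mock brains (SD, n = 3 each), a log2 difference of 0.29 (SE 0.23, adjusted p = 0.779 by limma). Without the third chitosan brain it was -0.02. With the number of distinct intensities as a covariate in the 12-array model, where 0.354% of all probes rose and 0.0635% fell, no member passed, but the brain values moved: Clps was at 0.83, Pla2g1b at -0.82 and Lpl probe A at -0.01 on the log2 scale (adjusted p = 0.294, 0.573 and 0.986 by limma).

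**Figure D2:**
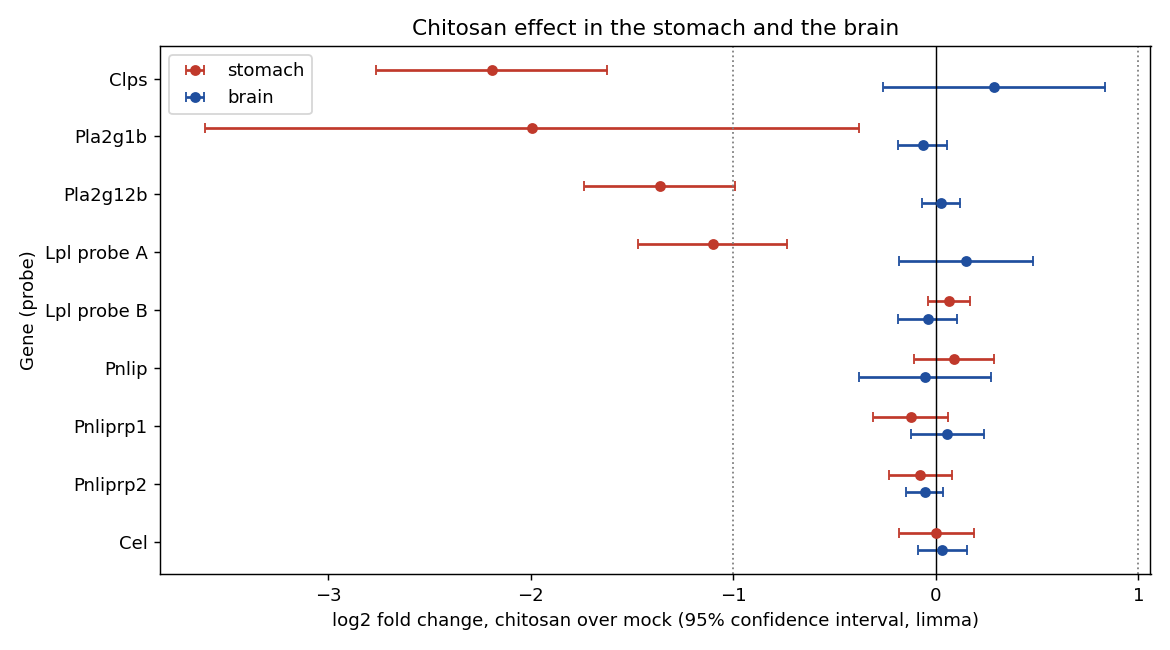
Log2 fold change, chitosan over mock, of the 9 probes in the stomach (red) and the brain (blue), with 95% confidence intervals from limma fits of 6 arrays each and dotted lines at 2-fold. In the stomach the intervals of Clps, Pla2g1b, Pla2g12b and Lpl probe A lie below 0, at -2.19, -1.99, -1.36 and -1.10, and in the brain every interval crosses 0.

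Whether the effect differed between the organs was tested over all 12 arrays, as the difference in the stomach minus that in the brain. By limma 2 of 9 member probes had a lower effect in the stomach at an adjusted p under 0.05, where 0.227% of all probes did, and none a higher one, where 0.0234% did. For Pla2g12b the difference was -1.39 (SE 0.14, adjusted p = 0.00365), and it passed in all 12 fits that left out 1 array. Both brain groups of this probe were near background, where no fall could be seen, so the value restates the stomach difference and does not show that the brain responded otherwise. The small spread of these brain groups also entered the fit. For Lpl probe A it was -1.25 (SE 0.19, adjusted p = 0.0244), and it passed in 4 of those 12 fits, with adjusted p up to 0.0984. With the mean of both Lpl probes it was -0.57 (adjusted p = 0.0536). Clps at -2.48 (SE 0.50, adjusted p = 0.0873) and Pla2g1b at -1.93 (SE 0.66, adjusted p = 0.386) did not pass, although Clps did without the intensity trend (adjusted p = 0.0381) and with only the probes brighter than the median (adjusted p = 0.0422). The brain values of Pla2g1b and mostly of Clps were near background too, and among these 4 only Lpl probe A was above the limit in all 3 mock brains.

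Genes that work with the members were counted from lists that had been drawn up by function, with the brightest probe of each gene. With the 6-array models of chitosan against mock, 0 of 29922 probes had an adjusted p under 0.05 by limma in either organ. That threshold therefore could not set these list genes apart from the members. Of 18 genes that assist or regulate lipoprotein lipase, 5 were higher and 13 lower in chitosan stomachs, with a median log2 difference of -0.03 beside 0.01 for all genes. Above background were 6 of them, 3 higher and 3 lower (median -0.06, beside -0.003 for all genes above background). Gpihbp1, whose product carries the lipase to the capillary surface, was near background at 52.2, 46.0 and 46.4 in chitosan stomachs and 55.25, 53.5 and 61.75 in mock stomachs. Apoc1, an apolipoprotein that restrains the lipase, was measured well, at 314, 322 and 245 in chitosan stomachs and 314, 357.5 and 336 in mock stomachs (log2 difference -0.20, adjusted p = 0.941 by limma). Lmf1, the factor that matures the lipase in the endoplasmic reticulum, differed by 0.11 and Apoe by 0.22 on the log2 scale.

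Of 21 other lipases and cofactors, 11 were higher and 10 lower in chitosan stomachs (median 0.01). Above background were 9 of them, 6 higher and 3 lower (median 0.09). The intracellular fat lipases were about level, with log2 differences of 0.03 for Pnpla2, 0.17 for Lipe and 0.14 for Mgll, which encode adipose triglyceride lipase, hormone-sensitive lipase and monoglyceride lipase. Liph, a lipase that releases lysophosphatidic acid, differed by -0.37 and Abhd6, a monoglyceride hydrolase, by -0.36. Neither passed.

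Of 17 other phospholipases A2 and their receptor, 10 were higher and 7 lower (median 0.03). Above background were 6 of them, 5 higher and 1 lower (median 0.22). Pla2g12a, the relative of Pla2g12b, had 92.9, 95.5 and 161 in chitosan stomachs against 334, 136 and 230 in mock stomachs. The groups overlapped, and the log2 difference was -0.96 (SE 0.47, adjusted p = 0.853 by limma). Lypla3, the older symbol of Pla2g15, whose product is the phospholipase of the lysosome, gave 80.2, 97.6 and 109 in chitosan stomachs against 69.7, 63.75 and 76.6 in mock stomachs, a log2 difference of 0.44 (SE 0.18, adjusted p = 0.853 by limma). These groups did not overlap, and the direction was opposite to that of Pla2g1b and Pla2g12b.

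Of 23 genes of fatty acid uptake and triglyceride synthesis, 9 were higher and 14 lower in chitosan stomachs (median -0.04). Above background were 9 of them, 3 higher and 6 lower (median -0.11). Fabp3, a cytosolic fatty acid carrier of heart and muscle, was at 60.7, 66.5 and 57.7 in chitosan stomachs against 93.0, 169 and 92.1 in mock stomachs, without overlap (log2 difference -0.88, SE 0.26, adjusted p = 0.795 by limma). Fabp5, the carrier found in squamous epithelium, was at 677.5, 601 and 586 in chitosan stomachs against 1019, 794 and 862 in mock stomachs, also without overlap (log2 difference -0.52, SE 0.39, adjusted p = 0.853 by limma). The acyltransferase genes Dgat1 and Dgat2, which make triglyceride in the last step, differed by 0.26 and 0.30 with overlap, and Mogat1, which acts one step earlier, by -0.50.

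**Figure D3:**
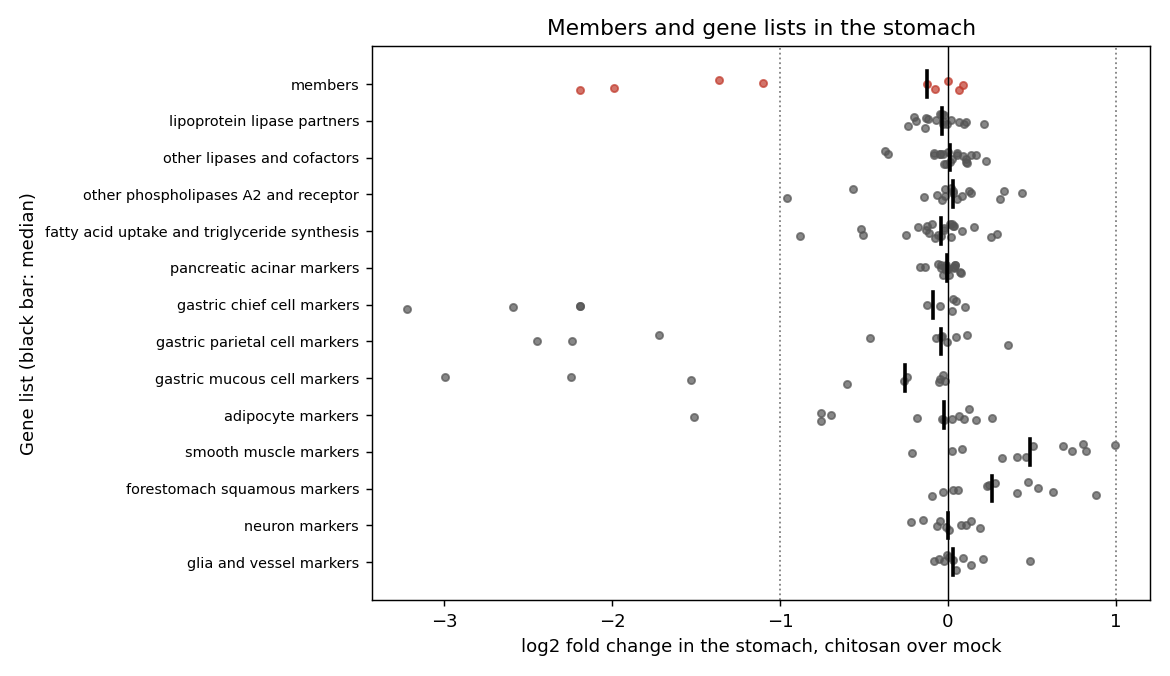
Log2 fold change in the stomach, chitosan over mock, of the members (red) and of the genes of 13 lists (grey), 1 point per gene probe, with a black bar at each list's median and dotted lines at 2-fold. Most genes of the lipase partner, lipase, phospholipase and fatty acid lists lie near 0. Only 6 of 18, 9 of 21, 6 of 17 and 9 of 23 of them were above background, and a value near 0 of the others shows no lack of change. Of the members, 4 probes lie between -2.19 and -1.10, and some markers of chief, parietal and mucous cells lie as low or lower.

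Markers of the cell types that a stomach sample can hold were set beside the members. Of 29 pancreatic acinar markers 18 were measured and none was above background in any group, their sum being 810 to 817 in chitosan stomachs and 804 to 832 in mock stomachs. In brains it was 792 to 882 with chitosan and 793 to 831 in mock. The acinar genes thus gave no more signal in the stomach than in the brain, while Clps and Pla2g1b, known as genes of the pancreas, did.

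Gland markers of the stomach were lower in the same chitosan arrays as the members. The sum of 10 chief cell markers was 1079 to 1097 in chitosan stomachs and 4743 to 5406 in mock stomachs, with 4 of the 10 higher and 6 lower (median -0.09). The 4 above background were all lower, though Agr2 was above background only through its mock stomachs. They were Pgc (pepsinogen C), Gif (intrinsic factor), Chia (acidic chitinase) and Agr2 (a secretory folding factor), with log2 differences of -3.22, -2.19, -2.19 and -2.59. None passed with the 6-array model (adjusted p of 0.0993 to 0.551 by limma), and all 4 passed with the 12-array model (adjusted p of 1.77e-05 to 0.00966). Of 11 parietal cell markers 3 were higher and 8 lower, with a sum of 614 to 1051 in chitosan stomachs and 1850 to 2294 in mock stomachs. Above background were 6 of them, 1 higher and 5 lower. Kcne2, a subunit of the parietal cell potassium channel, was at 55.3, 50.8 and 45.1 in chitosan stomachs against 283, 157.5 and 299 in mock stomachs (log2 difference -2.24, adjusted p = 0.136 by limma with 6 arrays). With the 12-array model Kcne2, the proton pump gene Atp4a and the channel gene Kcnq1 passed, at adjusted p of 6.11e-04, 0.0207 and 0.0400. All 10 mucous cell markers were lower, with a sum of 1113 to 3568 in chitosan stomachs and 5585 to 16588 in mock stomachs. Only 5 of them were above background, so the direction of the others says little. Among all genes above background, 50.7% were lower in chitosan stomachs. Of the mucous cell markers, the trefoil peptide gene Tff2 passed with the 12-array model (log2 difference -3.00, adjusted p = 0.00313 by limma). The part of the gland cells in the lower values of Clps, Pla2g1b, Pla2g12b and Lpl probe A was not tested.

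Markers of other layers ran the other way or less far. Of 12 smooth muscle markers 11 were higher in chitosan stomachs, with a sum of 16933 to 21247 against 10994 to 11790 in mock stomachs. Of 12 markers of the squamous forestomach 10 were higher, with a sum of 20350 to 28392 in chitosan stomachs and 15835 to 20159 in mock stomachs. None of these passed with either model. Of 13 adipocyte markers, the cell type best known for Lpl, 6 were higher and 7 lower. Their sum was 710 to 771 in chitosan stomachs and 820 to 1143 in mock stomachs. Above background were 6 of them, 2 higher and 4 lower. Adipoq was at 57.2, 60.5 and 50.25 in chitosan stomachs against 98.6, 80.25 and 106 in mock stomachs, and Cfd at 50.75, 47.0 and 42.7 against 74.2, 89.3 and 74.2. Both passed only with the 12-array model (adjusted p = 0.0400 and 0.00341 by limma). Thrsp, a regulator of fat synthesis, had the largest difference of the list, -1.51, and passed with neither model (adjusted p = 0.408 and 0.276 by limma). The defining markers Plin, Lep and Fabp4 were near background in both groups, and the part of fat cells in the lower Lpl signal was not tested.

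**Figure D4:**
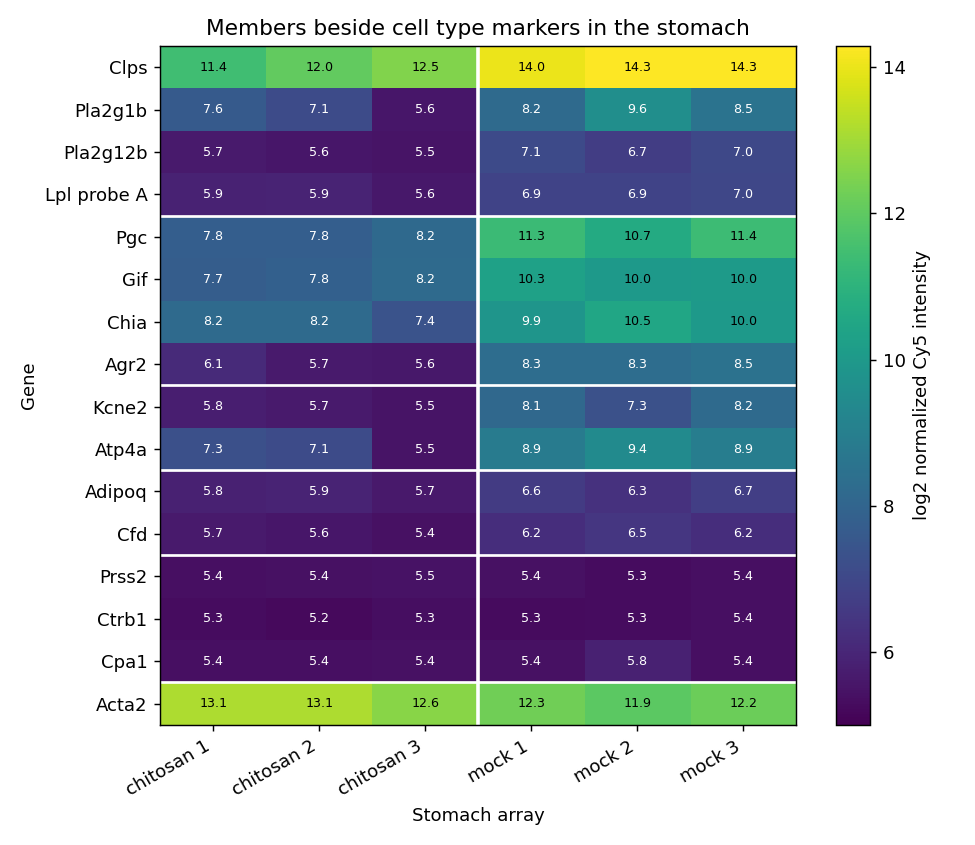
Log2 normalized Cy5 intensity of 4 member probes and of cell type markers on the 3 chitosan and 3 mock stomach arrays, to be read along each row, since levels of different probes cannot be set against each other. White lines part, from the top, the members, selected chief, parietal, adipocyte and pancreatic acinar markers and the smooth muscle gene Acta2. The markers shown in the first 4 blocks are lower on chitosan arrays, the acinar markers Prss2, Ctrb1 and Cpa1 stay near background on all 6, and Acta2 is higher. In the full lists 4 of 10 chief, 3 of 11 parietal and 6 of 13 adipocyte markers were higher with chitosan.

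Among themselves the members went together to different degrees over the 6 stomach arrays. Pearson's r of the log2 intensities was 0.974 for Pla2g12b with Lpl probe A, 0.909 for Clps with Pla2g12b and 0.906 for Clps with Lpl probe A. It was lower where Pla2g1b was concerned, from 0.653 with Clps to 0.863 with Lpl probe A. These arrays are 2 groups that differ, share a normalization and hold many tied values, so the coefficients describe them and carry no test.

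The genes most alike each member were sought among 4134 other named probes above background. Over all 12 arrays Clps was most like Ppap2c (r = 0.992), Krt10 (0.991), Gsto1 (0.990), Osgin1 (0.988) and Sprr2i (0.988), of which Krt10 and Sprr2i are genes of squamous epithelium. Over the 6 stomach arrays it was most like Vps28 (r = 0.987), Islr2 (0.984), Ghrl (0.982), Gif (0.974) and Alb (0.973). Ghrl, which encodes the hunger hormone ghrelin, averaged 325 in chitosan stomachs and 2970 in mock stomachs. Pla2g12b was most like the parietal cell gene Kcne2 over the stomach arrays (r = 0.996) and over all 12 arrays (r = 0.995), followed over the latter by Tmprss2, Glod5, Agr2 and Foxa3. Pla2g12b, Kcne2, Tmprss2, Agr2 and Foxa3 were each above background only through their mock stomachs. The same held for Islr2 and Alb, named above for Clps. Such coefficients restate that shared pattern and name no cell type. Pla2g1b was most like Krt19 (r = 0.993), Cenpa (0.989) and the proton pump gene Atp4a (0.988) over all 12 arrays. Over the stomach arrays it was most like Cenpa (0.999), Lgals4 (0.995), Rnase4 (0.993), Mrps28 (0.991) and Hist4h4 (0.988). Lgals4, Mrps28 and Hist4h4 too were above background only through their mock stomachs, so their coefficients likewise restate that pattern. Lpl probe A was most like Apoa1 over the stomach arrays (r = 0.998), the main apolipoprotein of high density lipoprotein, which averaged 112 in chitosan stomachs and 504 in mock stomachs. Over all 12 arrays it was most like Coq7 (r = 0.970) and Cox7a2 (0.966), genes of ubiquinone synthesis and of cytochrome c oxidase, which also gave signal in the brain. Cox7a2 averaged 81.1 in chitosan stomachs, 233 in mock stomachs, 130 in chitosan brains and 116 in mock brains.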

How the data were processed

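Total RNA of stomach and brain was labelled with Cy5 and hybridized to 12 single-colour Mouse Whole Genome OneArrays. The deposited values are linear Cy5 intensities. The authors had corrected each spot for its surroundings, dropped controls and spots with a negative signal-to-noise ratio, and normalized with limma, by a method that the labels and the paper do not name. All arrays share 1 highest intensity and hold many tied values, which hides an overall shift in RNA amount and very small differences.

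Intensities were log2 transformed without a pseudocount and fitted with lmFit and eBayes (intensity trend) in limma 3.58.1 under R 4.3.3. Benjamini-Hochberg adjustment ran over 29922 probes with a threshold of 0.05, from 6 arrays per comparison and 12 for the difference between organs. The 2-fold criterion carried no test. Symbols came from the platform annotation (21020 probes with 1 symbol, 8902 with none), loci and promoters from RefSeq, and groups from the labels. The number of arrays limits the precision. The fits were tested on simulated data.

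Members and lists (186 of 214 listed genes measured, 13 lists) were chosen with earlier results of these data known. All members were named, and of each list mainly the genes above background with the largest stomach difference, at most 4, and any that passed. The others, such as Lipf, Gpihbp1, Pnpla2 and Plin, were named for their roles after their values had been seen. Alternatives were the 12-array model, no trend, centred arrays, repeated quantile normalization, raised low values, bright probes only, the mean over a gene's probes, linear ratios, the methods' test, the replicate block and each array left out. Leaving out arrays in the 12-array model and the covariate were added after seeing the data.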

Additional observations from a re-analysis of the deposited data

Results flagged for a closer look

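The effect of chitosan on Pla2g12b was marked by the test of the difference between organs, with a stomach effect minus brain effect of -1.39 on the log2 scale by limma (adjusted p = 0.00365). Both brain groups were near background, where no fall could be seen, so this value restates the stomach difference. The chitosan stomachs were near background as well. For Lpl probe A the same difference was -1.25 (adjusted p = 0.0244 by limma), from a stomach difference of -1.10, with chitosan stomachs below the background limit, and a brain difference of 0.15. It passed in 4 of 12 fits that left out 1 array, with adjusted p up to 0.0984, and was -0.57 (adjusted p = 0.0536 by limma) with the mean of both Lpl probes. Probe B of Lpl, near background on all 12 arrays, differed between the organs by 0.11 (adjusted p = 0.665 by limma).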

How the results depend on the processing

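For chitosan in the stomach, the number of member probes with an adjusted p under 0.05 was 0 in the 6-array model. With 6 arrays it was 2 without the intensity trend (Pla2g12b and Lpl probe A), 0 to 1 on leaving out 1 array, and 0 under the others. In the 12-array model it was 3. There it was 2 to 3 on leaving out 1 array and 3 with the number of distinct intensities as a covariate. For the difference between organs it was 2, with 3 without the trend or with bright probes only, 1 with the mean of a gene's probes and 1 to 2 on leaving out 1 array. In the brain it was 0 under each alternative, and between the mock organs 3 to 5. The directions of Clps, Pla2g1b, Pla2g12b and Lpl probe A in the stomach held under each alternative. In the brain, where none was called, Pla2g12b changed sign to -0.000896 with low values raised and to -0.00241 without the first mock brain (up to 0.0513 on leaving out other arrays), and Clps to -0.0172 without the third chitosan brain (up to 0.453 on leaving out others). With the covariate, in the 12-array model, Lpl probe A changed sign to -0.0115, Clps was at 0.83 and Pla2g1b at -0.82. The causes were not tested. With the replicate number as a block, 0 member probes passed in the stomach, 0 in the brain, 3 between the mock organs and 2 for the difference between organs. In the stomach, the deviations of same-numbered chitosan and mock arrays from their group means had r of -0.40, 0.49 and 0.57 for numbers 1, 2 and 3. Numbers 2 and 3 thus deviated together and number 1 did not. For arrays with different numbers r ran from -0.74 to 0.68. The labels do not say what a number stands for, so the numbers were not taken as pairs, and these values do not settle whether they are. Signal over background limits Pla2g12b and Lpl in chitosan stomachs and 5 of 9 probes on all arrays.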
